A study of Mus musculus with 24 samples.

Results

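Zfp genes encode zinc finger proteins, most of them of the C2H2 kind, the largest family of DNA-binding proteins in the mouse, and 245 of them were measured here in CD4 T cells that were resting, activated, differentiated or restimulated. The 245 members are the symbols made of Zfp and a number whose mean over all 24 libraries reached 5 CPM, the count of a gene scaled to a common library total. A further 115 symbols of that form stayed under the minimum, 10 of them with no count in any library, so the members are 245 of 360 symbols among 23420 genes in the files. Members were chosen by their mean level only, which compares no groups, and the values that chose them are not results. Just inside the minimum lay Zfp11 at 5.11, Zfp433 at 5.16 and Zfp667 at 5.16 CPM, and just outside it Zfp821 at 4.95, Zfp691 at 4.93 and Zfp516 at 4.82 CPM. Of the members, 205 were at or over 5 CPM in every group, 22 were under it in 1 group, 16 in 2 groups and 2 in 3 groups.

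The libraries are bulk RNA-seq of sorted mouse CD4 T cells, 6 in each of 4 groups that share 1 genotype label, OT2Nur77GFP+/-. OT-II cells carry a transgenic T cell receptor for an ovalbumin peptide, and in the Nur77-GFP reporter the Nr4a1 promoter, which responds to receptor signalling, drives a fluorescent protein. Reactivated TH1 cells are TH1 cells restimulated for 6 hours with macrophages that had been loaded with antigen, and TH1 effector cells are the same kind of cell after 5 days of differentiation. Activated naive cells are naive cells after 6 hours of stimulation by an agent the labels do not name, and naive cells came directly from spleens. No group met macrophages without antigen, so reactivation and contact with macrophages cannot be told apart. The stimulus of naive cells may also differ from that of TH1 cells. Cell state and kind of stimulus thus cannot be told apart where the responses or the activated groups are compared. Titles carry a code from M1 to M6 that recurs in all 4 groups, and whether it marks an animal or a culture is not stated, so p-values rest on library-to-library spread alone, which may be technical. Libraries held 18457653 to 34262645 counts in genes. All 7 CD4 T cell markers in the files were found in every group, TH1 markers summed to 9621 to 19620 CPM in reactivated TH1, 1003 to 1523 CPM in TH1 effector, 86.8 to 109 CPM in activated naive and 0.624 to 1.14 CPM in naive libraries, and the 7 macrophage markers summed to 9.24 to 13.2 CPM in reactivated TH1, 3.32 to 4.67 CPM in TH1 effector, 9.26 to 11.7 CPM in activated naive and 7.35 to 10.8 CPM in naive libraries. Of these markers Lyz2 averaged 5.98 CPM in reactivated TH1, 0.0697 CPM in TH1 effector, 0.00575 CPM in activated naive and 0.214 CPM in naive cells. B cell markers reached a sum of 18.5 CPM in 1 TH1 effector library. The part of other cells in the values below was not tested.

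Most zinc finger proteins of the C2H2 kind carry a row of fingers, each of which reads a few bases of DNA. Many of them also carry a KRAB box, a domain that binds the corepressor Trim28 (KAP1) and through it the histone methyltransferase Setdb1, and KRAB zinc finger proteins are best known for silencing transposable elements in embryonic cells. They lie in clusters of tandem duplicates on a few chromosomes. A separate and small branch, the CCCH proteins Zfp36, Zfp36l1 and Zfp36l2, binds AU-rich elements of messenger RNA and brings in the CCR4-NOT deadenylase, and in T cells these proteins restrain cytokine mRNAs and help to keep cells quiescent. Among the members, 134 had a KRAB box in their annotated protein, 3 were CCCH proteins, 106 had neither and 2 had no annotated protein. The median number of C2H2 fingers was 12 in KRAB members and 7.5 in the others.

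Most Zfp members were lower in differentiated than in naive cells. In TH1 effector against naive cells, 27 members were higher and 193 were lower (edgeR quasi-likelihood test, adjusted p under 0.05), 86 of the lower ones by at least 2-fold. Among the 9677 genes of at least 5 CPM, 41.6% were higher and 44.6% lower in the same comparison, and among all 12584 genes tested 44.6% were higher and 40.3% lower. The members' shares were 11.0% higher and 78.8% lower. Their median log2 fold change was -0.80, against -0.04 for genes of at least 5 CPM. All 6 TH1 effector libraries lay below all 6 naive libraries for 64.5% of members and above them for 6.5%, against 36.1% and 34.6% of genes of at least 5 CPM. Of the 68 tested symbols under the minimum, 29 were higher and 29 lower. Fewer transcripts per cell and less RNA from a subset of cells cannot be told apart in bulk libraries. Levels here are relative to all counts of a library, and transcripts per cell were not measured.

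KRAB members made up 114 of the 193 members that were lower in TH1 effector cells, close to their part of all members (134 of 245). Of 134 KRAB members, 9 were higher and 114 lower in TH1 effector than in naive cells, with a median log2 fold change of -0.97. Of the 109 other members with a protein, 18 were higher and 78 lower, with a median of -0.54. The difference between the classes was not tested. Summed over all KRAB members, the level was 2461 to 2682 CPM in reactivated TH1, 2005 to 2781 CPM in TH1 effector, 4096 to 4376 CPM in activated naive and 3943 to 4967 CPM in naive libraries. The 2 TH1 groups thus lay below both groups of naive origin with no overlap. Naive cells had the highest mean for 123 of the 245 members (50.2%), against 30.8% of genes of at least 5 CPM, and activated naive cells for 82 (33.5% against 26.4%). TH1 effector cells had the highest mean for 21 members (8.6%, against 1932 of 9677 genes) and reactivated TH1 cells for 19 (7.8% against 22.7%).

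**Figure D1:**
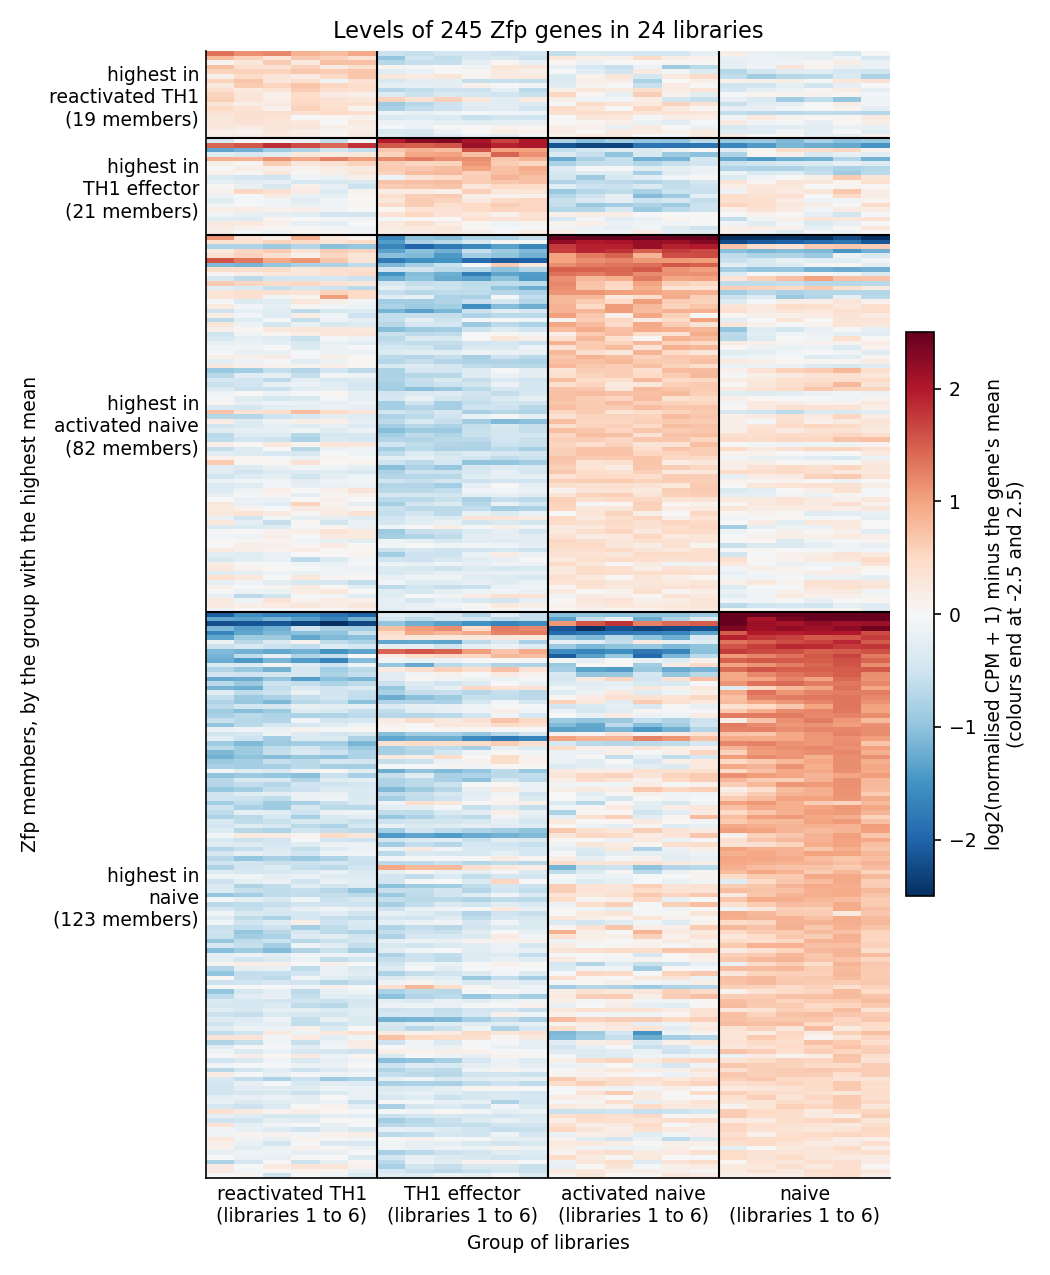
Level of each of 245 Zfp members (rows) in each of 24 libraries (columns), as log2(normalised CPM + 1) minus the gene's mean over libraries. Rows are grouped by the group with the highest mean: 19 members in reactivated TH1, 21 in TH1 effector, 82 in activated naive and 123 in naive cells.

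**Figure D2:**
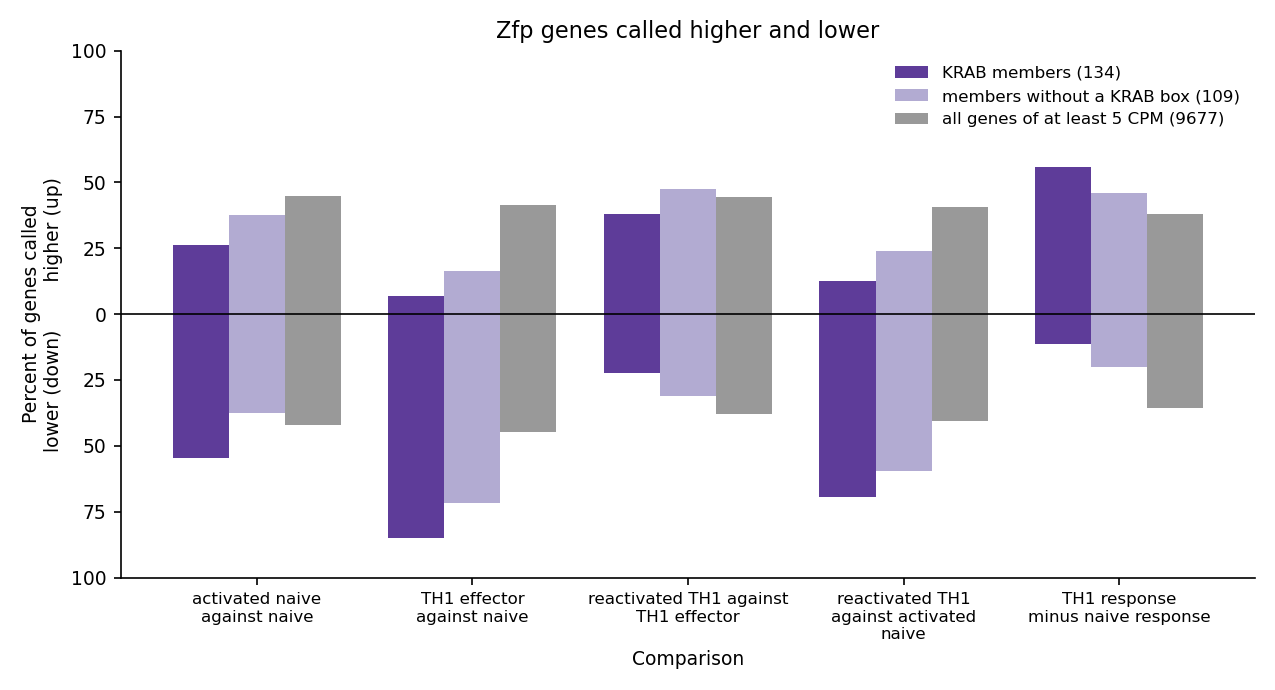
Percent of KRAB members, of members without a KRAB box and of all genes of at least 5 CPM called higher (above 0) or lower (below 0) in each comparison, at an adjusted p of 0.05. In TH1 effector against naive cells 85.1% of KRAB members, 71.6% of members without a KRAB box and 44.6% of genes of at least 5 CPM were lower.

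Short activation of naive cells moved the family in both directions. In activated naive against naive cells 78 members were higher and 114 lower, where 44.9% and 41.9% of genes of at least 5 CPM (41.3% and 40.5% of all tested) were higher and lower. With scaling by library size alone, which shifts the median of all genes by -0.17, the split was 56 higher and 138 lower. Under that scaling 4557 of all 12584 genes tested were higher and 5755 lower. Of the 134 KRAB members 35 were higher and 73 lower (26.1% and 54.5%, against 31.8% and 46.5% of all members). Libraries did not overlap for 50 members that were higher (20.4% of members, against 37.7% of genes of at least 5 CPM) and 89 that were lower (36.3% against 35.1%).

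The largest rises in activated naive cells belonged to a pair of neighbouring KRAB genes. Zfp948 ranged from 141 to 248 normalised CPM (median 170) in activated naive libraries and from 2.10 to 3.60 CPM (median 2.86) in naive libraries. Its neighbour Zfp52 ranged from 249 to 304 CPM (median 275) in activated naive and from 12.1 to 16.8 CPM (median 14.0) in naive libraries. Every activated naive library was thus many times above every naive one for both genes. The log2 fold changes were 5.99 ± 0.20 for Zfp948 (SE, adjusted p = 9.83e-17) and 4.26 ± 0.15 for Zfp52 (SE, adjusted p = 6.54e-18). In TH1 cells the pair also rose on restimulation, at lower levels. Zfp948 ranged from 22.1 to 45.0 CPM in reactivated TH1 and from 6.01 to 13.4 CPM in TH1 effector libraries, and Zfp52 from 78.2 to 90.2 CPM in reactivated TH1 and from 22.6 to 62.5 CPM in TH1 effector libraries. Groups did not overlap for either gene, and the log2 fold changes were 1.57 ± 0.20 (SE, adjusted p = 1.22e-07) for Zfp948 and 0.95 ± 0.15 (SE, adjusted p = 9.25e-07) for Zfp52. Zfp52 split by sequencing run in TH1 effector cells. Libraries 1 to 3 held 22.6 to 38.2 CPM of it and libraries 4 to 6 held 45.8 to 62.5 CPM, so its rise was larger in the former. The response of TH1 cells was smaller than that of naive cells by 4.42 on the log2 scale for Zfp948 (adjusted p = 7.72e-12) and by 3.31 for Zfp52 (adjusted p = 6.29e-13). Both genes were already higher in TH1 effector than in naive cells, by a log2 fold change of 1.87 ± 0.20 for Zfp948 and 1.58 ± 0.15 for Zfp52. An exon of Zfp52 lies opposite 9330136K24Rik on the other strand, and as the strand setting of the counting is not given, part of its counts may belong to that gene.

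Zfp52 (chr17:21535539-21562601, GENCODE M21 on GRCm38) and Zfp948 (chr17:21567008-21588699) are read from the same strand, with 31469 bases between their starts. Their RefSeq promoters on GRCm38.p6, 250 bases before to 50 after the start, are shown because both genes rose together, with shared runs of at least 10 bases in capitals. They stand at chr17:21535289-21535588 and chr17:21566728-21567027, plus strand.
Zfp52: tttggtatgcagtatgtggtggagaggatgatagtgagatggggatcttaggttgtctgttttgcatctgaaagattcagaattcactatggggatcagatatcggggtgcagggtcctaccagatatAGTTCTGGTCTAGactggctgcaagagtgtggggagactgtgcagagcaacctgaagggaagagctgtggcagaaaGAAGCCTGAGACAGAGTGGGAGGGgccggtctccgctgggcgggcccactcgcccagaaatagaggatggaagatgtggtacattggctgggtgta
Zfp948: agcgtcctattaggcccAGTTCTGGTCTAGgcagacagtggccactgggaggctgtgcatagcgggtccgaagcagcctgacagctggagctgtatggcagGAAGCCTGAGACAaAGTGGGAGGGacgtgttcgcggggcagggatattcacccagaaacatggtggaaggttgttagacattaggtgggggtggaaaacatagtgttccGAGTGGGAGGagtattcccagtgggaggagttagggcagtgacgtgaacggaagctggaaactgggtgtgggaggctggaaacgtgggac
The longest run that they share without a mismatch is 13 bases. Zfp948 holds the longer stretch of capitals in Zfp52 as well, save for the base in lower case within it. Part of that stretch also stands further along in Zfp948. Over 20100 pairs of 201 members with a promoter, the median longest shared run was 8 bases, and 264 pairs (1.31%) shared a run of 13 bases or more. Neither promoter held any of 5 motifs searched on both strands, which were TGACGTCA (CRE), TGANTCA (AP-1), CACGTG (E-box), CCGGAAG (ETS) and GGGNNTTCC (NF-kB). These letters say nothing about which factors bind there. Of the 244 promoters of these 201 members, some of which have several, the ETS motif was found in 20.9%, against 8.9% of all 32851 promoters of that length. The CRE was found in 4.1% against 1.8%, AP-1 in 4.5% against 7.8%, the E-box in 7.4% against 7.2% and NF-kB in 6.1% against 5.8%. The 32851 promoters were not limited to genes of at least 5 CPM, as the members were. Whether these shares differ from those of other genes of such levels was not tested. Promoters of members lower in TH1 effector than in naive cells held the ETS motif in 22.6% of 190, and promoters of the other members in 14.8% of 54.

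Further members rose on activation in cells of both origins. Zfp202 is a KRAB gene whose human counterpart was described as a repressor of lipid metabolism genes. In reactivated TH1 libraries it ranged from 11.8 to 16.03 CPM (median 14.6), against 3.28 to 6.21 CPM (median 4.15) in TH1 effector libraries. It ranged from 29.2 to 39.3 CPM (median 35.0) in activated naive and from 2.93 to 4.20 CPM (median 3.90) in naive libraries. Neither pair of groups overlapped. The log2 fold change was 1.71 ± 0.13 in TH1 cells (SE, adjusted p = 2.57e-12) and 3.19 ± 0.13 in naive cells (SE, adjusted p = 5.25e-18), a difference of -1.48 ± 0.18 (adjusted p = 4.31e-08). Its promoter at chr9:40192066-40192365 (plus strand) holds the E-box and the ETS motif, in capitals.
Zfp202: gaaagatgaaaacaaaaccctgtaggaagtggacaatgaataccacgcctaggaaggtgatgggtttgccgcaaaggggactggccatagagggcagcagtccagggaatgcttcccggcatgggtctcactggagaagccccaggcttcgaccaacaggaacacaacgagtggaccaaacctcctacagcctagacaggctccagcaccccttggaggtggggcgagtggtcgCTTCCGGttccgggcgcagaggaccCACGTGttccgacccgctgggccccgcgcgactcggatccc
Zfp827, whose human counterpart recruits the NuRD complex to telomeres, rose by 1.60 ± 0.15 on the log2 scale in TH1 cells and by 1.99 ± 0.15 in naive cells, and the difference of these responses did not pass the test (-0.38 ± 0.22, adjusted p = 0.0911). Zfp566, a KRAB gene, rose by 1.88 ± 0.12 in TH1 cells and by 1.49 ± 0.12 in naive cells, and its TH1 response was the larger by 0.39 ± 0.17 (adjusted p = 0.032).

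The deepest falls on activation of naive cells were those of Zfp467, Zfp831, Zfp945, Zfp36l2 and Zfp395. Zfp467, known from mice for favouring fat over bone formation in marrow stromal cells, ranged from 0.210 to 0.537 CPM (median 0.449) in activated naive and from 28.3 to 35.5 CPM (median 30.6) in naive libraries. In reactivated TH1 libraries it ranged from 1.65 to 3.71 CPM (median 2.39), against 8.51 to 15.6 CPM (median 13.5) in TH1 effector libraries. No groups overlapped, and Zfp467 stayed under 1 CPM in every activated naive library. Its log2 fold change was -2.37 ± 0.20 in TH1 cells (SE, adjusted p = 5.84e-13) and -6.20 ± 0.20 in naive cells (SE, adjusted p = 7.55e-20). The difference of 3.83 ± 0.29 passed the test (adjusted p = 2.52e-12). Zfp831 ranged from 8.05 to 8.92 CPM (median 8.27) in activated naive and averaged 177 ± 11.5 CPM in naive libraries (SD, n = 6). It ranged from 3.48 to 5.46 CPM (median 4.49) in reactivated TH1 and from 10.2 to 14.6 CPM (median 12.97) in TH1 effector libraries. Naive cells thus stood alone with a high level of Zfp831, which was lower in the other 3 groups with no overlap. Zfp395 fell on both stimulations, by 2.60 on the log2 scale in TH1 cells (log2 fold change -2.60 ± 0.13, SE, adjusted p = 1.33e-15) and by 3.27 in naive cells (log2 fold change -3.27 ± 0.13, SE, adjusted p = 7.81e-18), while TH1 effector and naive cells differed by -0.38 ± 0.13. The KRAB gene Zfp945 had log2 fold changes of -2.31 ± 0.15 in TH1 cells and -4.05 ± 0.15 in naive cells (SE), both past the test.

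Differentiation raised few members. Zfp367 ranged from 47.8 to 76.2 CPM (median 57.9) in TH1 effector and from 4.65 to 6.83 CPM (median 5.83) in naive libraries. Restimulation left it between 45.5 and 61.0 CPM (median 51.6), and in activated naive libraries it lay between 2.48 and 3.97 CPM (median 3.36). Both TH1 groups were far above both groups of naive origin. The log2 fold change of TH1 effector against naive cells was 3.35 ± 0.12 (SE, adjusted p = 4.63e-19), and that of reactivated TH1 against activated naive cells 4.03 ± 0.12 (SE, adjusted p = 6.54e-20). Zfp608 was highest in TH1 effector cells, from 44.7 to 68.2 CPM (median 56.2), against 5.59 to 7.05 CPM (median 6.35) in naive libraries. It lay between 8.32 and 12.9 CPM in reactivated TH1 libraries and between 5.80 and 7.84 CPM in activated naive libraries. Its log2 fold change was 3.19 ± 0.12 in TH1 effector against naive cells (SE, adjusted p = 1.07e-18) and -2.34 ± 0.12 in reactivated TH1 against TH1 effector cells (SE, adjusted p = 3.9e-16). Its relative Zfp609, whose protein binds the cohesin loader Nipbl in neural progenitors, showed a smaller rise of 1.56 ± 0.07 with differentiation and a fall of 0.67 (log2 fold change -0.67 ± 0.07) on restimulation.

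Restimulation of TH1 cells moved members in both directions, most of them by less than 2-fold. In reactivated TH1 against TH1 effector cells 105 members were higher and 64 lower, 15 and 17 of them by at least 2-fold, where 44.3% and 37.8% of genes of at least 5 CPM (39.9% and 39.8% of all tested) were higher and lower. With scaling by library size alone, which shifts the median of all genes by -0.12, the split was 84 higher and 86 lower. Under that scaling 4346 of all 12584 genes tested were higher and 5652 lower. The balance of directions thus depends on the scaling, for members and for all genes tested. Groups did not overlap for 73 higher members (29.8%, against 34.0% of genes of at least 5 CPM) and 36 lower members (14.7% against 28.7%). Zfp862, annotated as a pseudogene in GENCODE M21, ranged from 10.1 to 25.4 CPM (median 17.1) in reactivated TH1 and from 1.09 to 2.13 CPM (median 1.51) in TH1 effector libraries, with a log2 fold change of 3.43 ± 0.17 (SE, adjusted p = 2.36e-15). Activated naive and naive libraries held 16.5 to 19.6 CPM and 5.05 to 7.47 CPM of Zfp862. Its exons overlap Gm7887 on the other strand. Zfp703, a corepressor known from breast cancer in humans, was highest in reactivated TH1 cells. It ranged from 37.5 to 57.4 CPM (median 45.8) there, against 14.2 to 15.9 CPM (median 15.1) in TH1 effector libraries, and its log2 fold change was 1.62 ± 0.10 (SE, adjusted p = 3.72e-14). In activated naive against naive cells it differed by -0.30 ± 0.10. Zfp944, a KRAB gene of the chromosome 17 cluster, was lower after restimulation by 1.95 on the log2 scale (log2 fold change -1.95 ± 0.13, adjusted p = 4.15e-13).

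**Figure D3:**
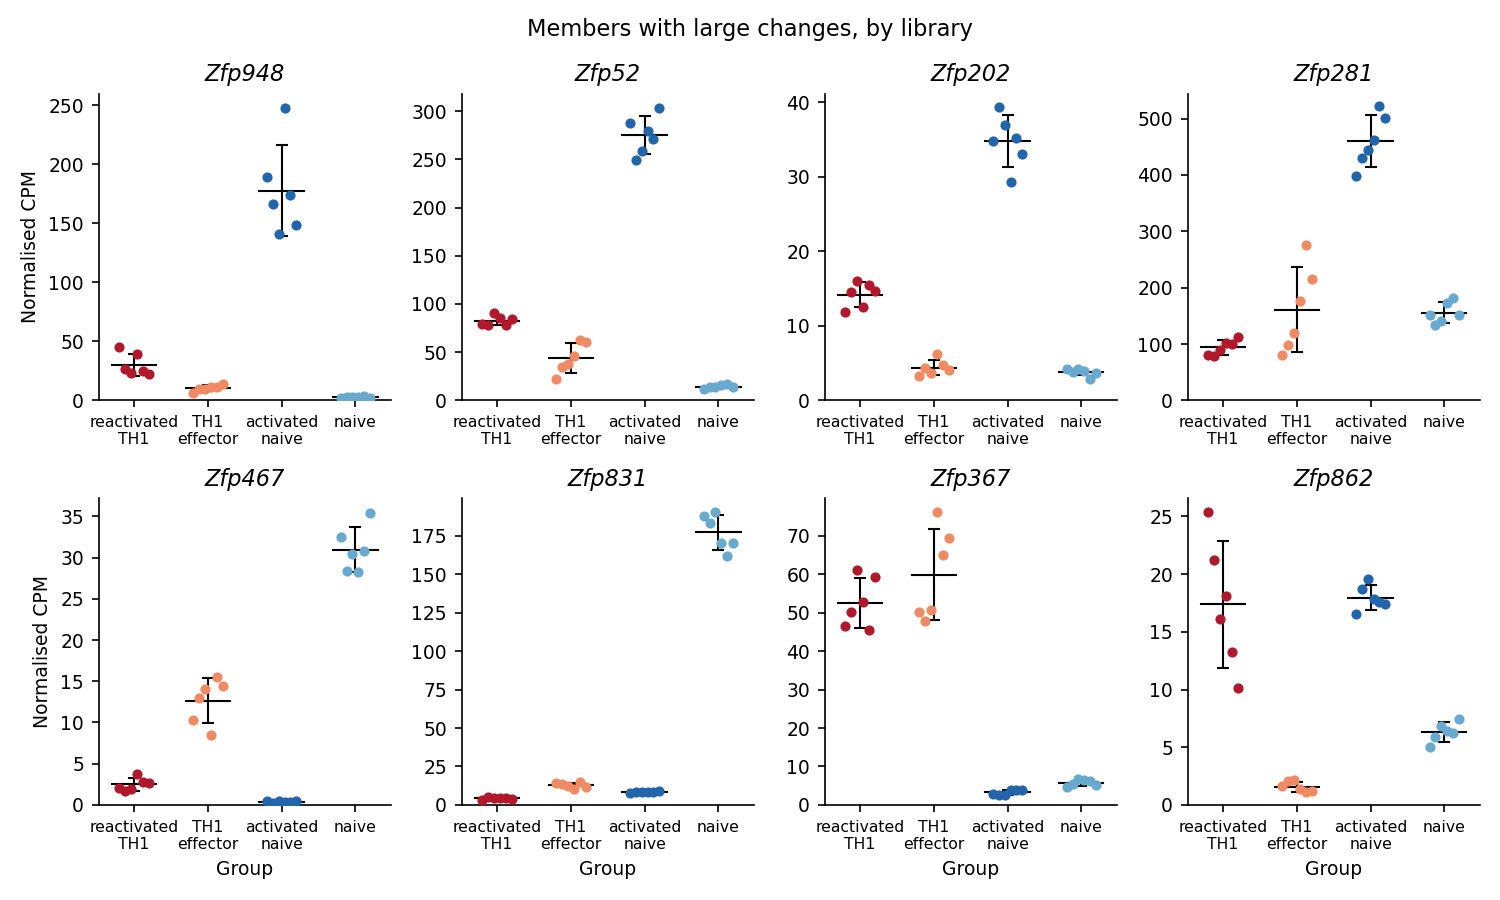
Normalised CPM of 8 members in each library (points; 6 per group, libraries 1 to 6 from left to right), with the group mean (line) and SD (bars). Zfp948 and Zfp52 are highest in activated naive libraries, Zfp467 and Zfp831 in naive libraries, and Zfp367 in both TH1 groups.

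The responses to stimulation were compared member by member. As the stimuli of TH1 and naive cells may differ, a difference of responses cannot be assigned to cell state. Of the 245, 59 rose in both TH1 and naive cells (24.1%, against 32.7% of genes of at least 5 CPM) and 53 fell in both (21.6% against 27.8%). A further 20 rose in TH1 and fell in naive cells (8.2%, close to the 6.3% of genes of at least 5 CPM), 3 fell in TH1 and rose in naive cells (1.2% against 6.0%), and 41 had no call in TH1 cells and fell in naive cells (16.7% against 7.8%). Tested as a difference, the TH1 response minus the naive response was higher than 0 for 126 members and lower for 37, with a median of 0.32 on the log2 scale. In genes of at least 5 CPM 37.9% were higher and 35.7% lower (34.3% and 33.7% of all tested). The difference rests on the same 24 libraries as the other comparisons. It also equals reactivated TH1 against activated naive minus TH1 effector against naive. Its counts are thus not separate evidence beside the lower levels of members in TH1 effector than in naive cells. KRAB members had 75 higher and 15 lower differences, and other members with a protein 50 and 22. Zfp467, Zfp658, Zfp831, Zfp712 and Zfp36l2 had the largest positive differences, from 3.83 to 2.53, and each of them fell in activated naive cells. The KRAB gene Zfp658, for example, lay between 3.79 and 4.84 CPM in reactivated TH1 against 4.15 and 5.61 CPM in TH1 effector libraries, and between 2.34 and 2.85 CPM in activated naive against 20.6 and 25.9 CPM in naive libraries. Its log2 fold change was -0.23 ± 0.07 in TH1 cells and -3.19 ± 0.07 in naive cells (SE). It was thus already low in TH1 effector cells.

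**Figure D4:**
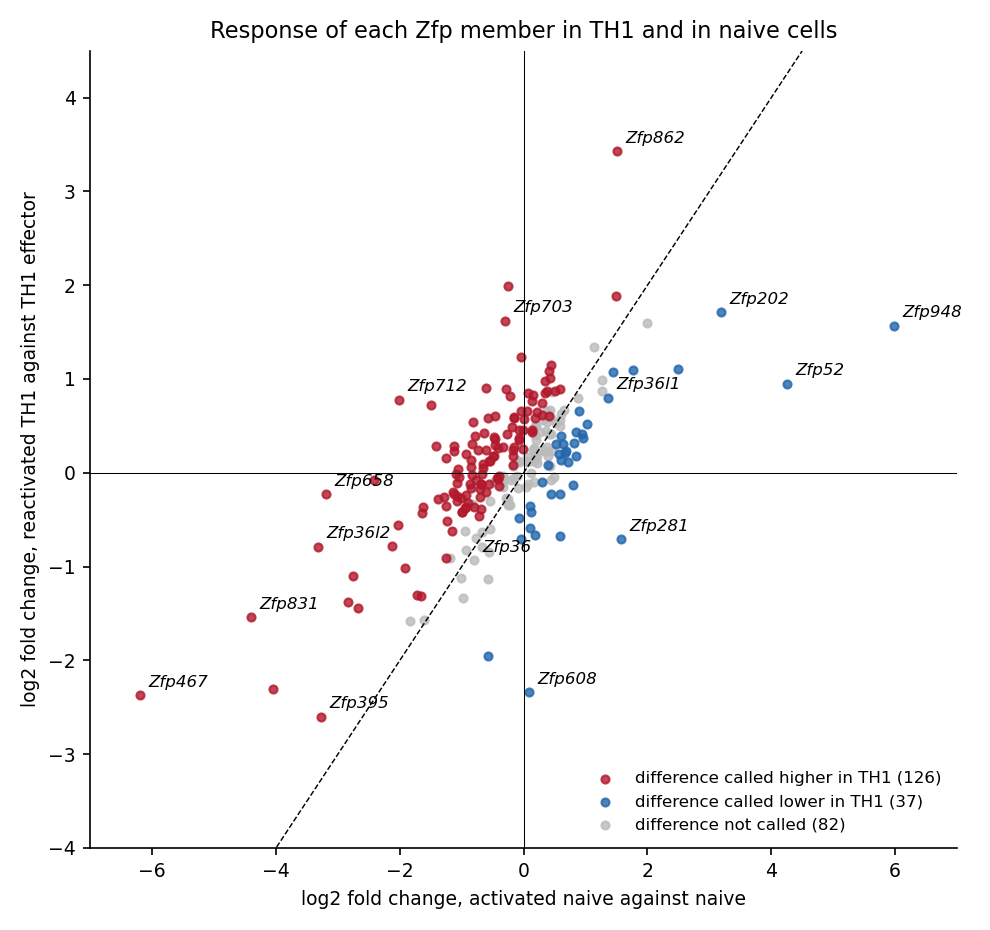
Log2 fold change of each of 245 members in reactivated TH1 against TH1 effector cells (vertical axis) and in activated naive against naive cells (horizontal axis); the dashed line marks equal responses. Red points (126) have a TH1 response called higher than the naive response, blue points (37) one called lower, and grey points (82) no called difference.

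Between the activated states, reactivated TH1 cells stood below activated naive cells. In this comparison 43 members (17.6%) were higher and 64.5% of the 245 were lower, with a median log2 fold change of -0.47, where 40.7% and 40.5% of genes of at least 5 CPM (43.4% and 36.4% of all tested) were higher and lower. Of the KRAB members 17 were higher and 93 lower. No overlap of libraries was seen for 21 higher members (8.6%, against 31.3% of genes of at least 5 CPM) and 121 lower members (49.4% against 30.2%). This comparison shares libraries with those described above, and its counts are not separate evidence of the same tilt. Zfp281, a transcription factor that restrains pluripotency genes in mouse embryonic stem cells, ranged from 78.4 to 113 CPM (median 94.7) in reactivated TH1 and from 398 to 522 CPM (median 453) in activated naive libraries, with a log2 fold change of -2.30 ± 0.16 (SE, adjusted p = 4.08e-12). It fell on stimulation of TH1 cells by 0.71 on the log2 scale (log2 fold change -0.71 ± 0.16, adjusted p = 1.63e-04) and rose in naive cells by 1.57 ± 0.16 (adjusted p = 1.54e-09), and the difference of the responses was -2.28 ± 0.22 (adjusted p = 2.4e-09). In TH1 effector libraries Zfp281 split by sequencing run, with 80.9, 98.4 and 119 CPM in libraries 1 to 3 and 177, 276 and 215 CPM in libraries 4 to 6. Reactivated TH1 libraries 1 to 3 held 78.4 to 89.6 CPM and overlapped the TH1 effector libraries of that run. Reactivated TH1 libraries 4 to 6 held 99.8 to 113 CPM and lay below those of theirs. The fall of Zfp281 in TH1 cells was thus free of overlap in run 2 only. The difference of its responses kept its direction and its call in each run alone. Against naive cells the log2 fold change of TH1 effector cells was -0.02 ± 0.16 in all libraries, -0.48 in run 1 alone and 0.39 in run 2 alone, so no direction can be given.

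All 3 CCCH members were much lower in TH1 effector than in naive cells. Zfp36, which encodes tristetraprolin, ranged from 23.0 to 32.6 CPM (median 30.5) in reactivated TH1, 46.0 to 73.9 CPM (median 53.7) in TH1 effector, 313 to 508 CPM (median 408) in activated naive and 617 to 969 CPM (median 656) in naive libraries. No groups overlapped, and reactivated TH1 libraries were the lowest, followed by TH1 effector, activated naive and naive libraries. Its log2 fold change was -0.93 ± 0.12 in reactivated TH1 against TH1 effector cells (SE, adjusted p = 5.99e-08), -0.80 ± 0.12 in activated naive against naive cells (adjusted p = 3.1e-07) and -3.64 ± 0.12 in TH1 effector against naive cells (adjusted p = 6.43e-19). The difference between the TH1 and the naive response did not pass the test (-0.13 ± 0.17, adjusted p = 0.483).

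Zfp36l1 moved the other way on stimulation. It ranged from 138 to 172 CPM (median 158.8) in reactivated TH1, 71.2 to 112 CPM (median 91.5) in TH1 effector, 957 to 1289 CPM (median 1098) in activated naive and 363 to 470 CPM (median 446) in naive libraries. No groups overlapped. The gene rose by 0.80 ± 0.09 on the log2 scale in reactivated TH1 cells (SE, adjusted p = 1.94e-09) and by 1.37 ± 0.09 in activated naive cells (SE, adjusted p = 2.54e-14), and it fell by 2.24 with differentiation (log2 fold change -2.24 ± 0.09, adjusted p = 2.39e-18). Of its 50-base words, 54.4% also occur in other transcripts and an exon of it lies opposite Gm26669, so its counts are uncertain to that extent. Zfp36l2 fell on both routes from the naive state. It ranged from 79.0 to 112 CPM (median 102) in reactivated TH1, 160 to 189 CPM (median 176) in TH1 effector, 100 to 224 CPM (median 160) in activated naive and 1070 to 1888 CPM (median 1691) in naive libraries. Naive libraries lay far above all others, and activated naive libraries overlapped both TH1 groups. Its log2 fold change was -0.79 ± 0.18 in reactivated TH1 against TH1 effector cells (SE, adjusted p = 2.17e-04), -3.32 ± 0.18 in activated naive against naive cells (adjusted p = 9.5e-14) and -3.18 ± 0.18 in TH1 effector against naive cells (adjusted p = 2.32e-13).

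Per kilobase of exon, the order of the 3 CCCH genes changed with the state. Exon length covers all annotated exons of a gene and not a given transcript, so levels of different genes compare only roughly. The limit given above for the counts of Zfp36l1 holds here too. In reactivated TH1 cells the levels were 52.5 normalised CPM per kilobase for Zfp36l1, 28.6 for Zfp36l2 and 8.54 for Zfp36, and in TH1 effector cells 49.6 for Zfp36l2, 30.3 for Zfp36l1 and 16.3 for Zfp36. Activated naive cells held 371 of Zfp36l1, 116 of Zfp36 and 44.9 of Zfp36l2, whereas naive cells held 450 of Zfp36l2, 202 of Zfp36 and 143 of Zfp36l1. Thus Zfp36l1 led in both stimulated states and Zfp36l2 in both unstimulated ones. The sum of the 3 was 240 to 303 CPM in reactivated TH1, 297 to 353 CPM in TH1 effector, 1369 to 1839 CPM in activated naive and 2108 to 3074 CPM in naive libraries.

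**Figure D5:**
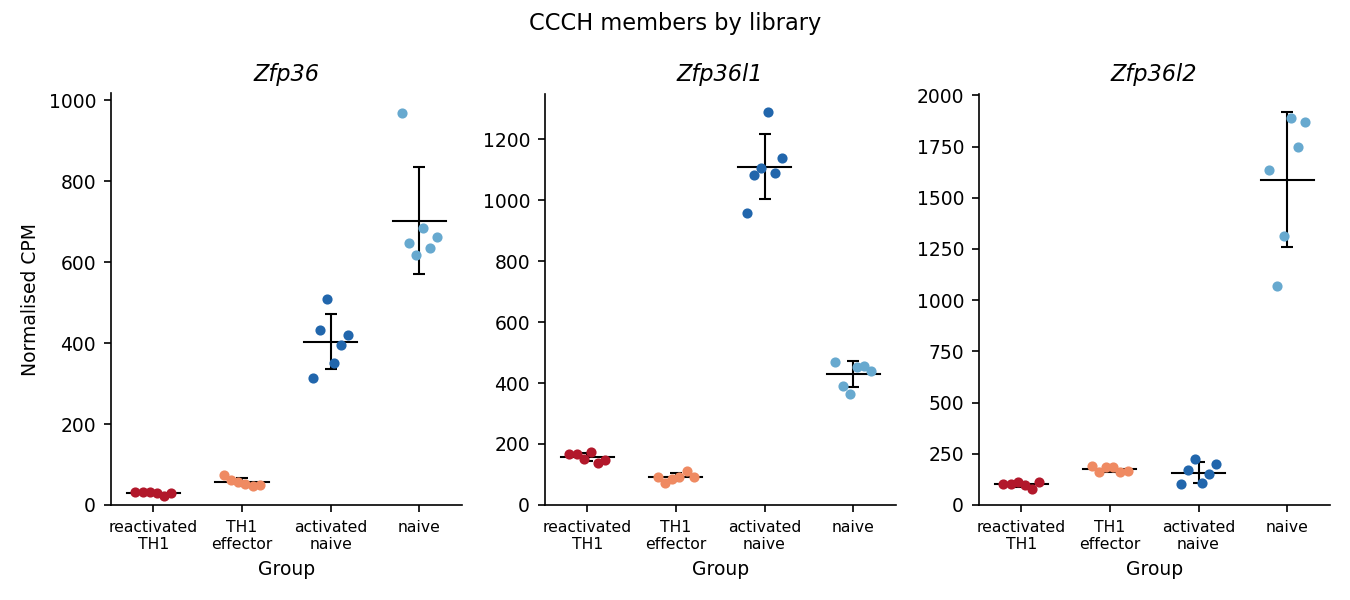
Normalised CPM of the CCCH members Zfp36, Zfp36l1 and Zfp36l2 in each library (points; 6 per group), with the group mean (line) and SD (bars). Zfp36 and Zfp36l2 are highest in naive libraries and Zfp36l1 in activated naive libraries, where it lies between 957 and 1289 CPM.

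The promoters of Zfp36 and Zfp36l1 are shown as both genes respond to stimulation within hours but in opposite directions. Capitals mark the ETS motif in Zfp36 (chr7:28379179-28379478, minus strand) and the AP-1 motif in Zfp36l1 (chr12:80112964-80113263, minus strand), the motifs found there of the 5 searched.
Zfp36: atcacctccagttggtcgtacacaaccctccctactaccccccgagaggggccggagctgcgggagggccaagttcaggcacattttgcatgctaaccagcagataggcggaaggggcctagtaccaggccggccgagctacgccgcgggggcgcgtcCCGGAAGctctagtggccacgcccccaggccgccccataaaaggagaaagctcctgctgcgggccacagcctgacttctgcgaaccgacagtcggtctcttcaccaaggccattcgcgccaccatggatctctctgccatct
Zfp36l1: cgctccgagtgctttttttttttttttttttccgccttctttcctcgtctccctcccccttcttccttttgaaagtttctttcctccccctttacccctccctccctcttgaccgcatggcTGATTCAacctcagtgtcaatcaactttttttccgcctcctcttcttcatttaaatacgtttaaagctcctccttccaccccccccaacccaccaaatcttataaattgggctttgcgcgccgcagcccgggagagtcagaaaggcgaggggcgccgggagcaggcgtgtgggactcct
Of 22 genes of the CCR4-NOT deadenylase, decapping factors and their adaptors, 3 were higher and 15 lower in TH1 effector than in naive cells (13.6% and 68.2%, against 41.6% and 44.6% of genes of at least 5 CPM), with a median log2 fold change of -0.39. Cnot1, the scaffold of the deadenylase, differed by -0.33 (adjusted p = 1.39e-06), and the antiproliferative adaptor Btg2 averaged 40.1 CPM in TH1 effector and 345 CPM in naive cells, a log2 fold change of -3.11 (adjusted p = 5.18e-10). After restimulation 14 of the 22 were higher and 1 lower than in TH1 effector cells (63.6% and 4.5%, against 44.3% and 37.8% of genes of at least 5 CPM).

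Of 17 genes for corepressor partners of KRAB proteins, 6 were higher and 9 lower in TH1 effector than in naive cells, shares of 35.3% and 52.9% that lie near the 41.6% and 44.6% of genes of at least 5 CPM. In reactivated TH1 against TH1 effector cells 10 were higher and 6 lower (58.8% and 35.3%, against 44.3% and 37.8%). Trim28 averaged 495 CPM in reactivated TH1, 376 CPM in TH1 effector, 476 CPM in activated naive and 221 CPM in naive cells, and was higher in TH1 effector than in naive cells by 0.77 on the log2 scale (adjusted p = 1.29e-14). Setdb1 was lower by 0.36 (log2 fold change -0.36, adjusted p = 1.27e-09), and Atf7ip, which stabilises Setdb1, by 1.72 (log2 fold change -1.72, adjusted p = 4.08e-18). Uhrf1, which guides maintenance DNA methylation and is made in dividing cells, averaged 307 CPM in TH1 effector and 2.99 CPM in naive cells.

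Grouping neighbouring members with gaps of at most 500000 bases gave 11 clusters of 5 or more. Their counts in TH1 effector against naive cells stand beside 11.0% higher and 78.8% lower over all members, and no cluster was tested against the rest. On chromosome 13 (chr13:67038596-67755228, GRCm38), 14 members, all with a KRAB box, were all lower in TH1 effector than in naive cells, with log2 fold changes from -3.00 to -1.06 and a median of -1.36. Of these 14, 10 were lower and none higher in activated naive than in naive cells. In that comparison 46.5% of all members and 41.9% of genes of at least 5 CPM were lower. A TH1 response called higher than the naive response was seen for 12 of the 14. The same call was made for 51.4% of all members and 37.9% of genes of at least 5 CPM. Zfp712 led the 14, with 1.56 to 3.83 CPM in TH1 effector and 15.1 to 22.4 CPM in naive libraries (log2 fold change -3.00 ± 0.21, SE, adjusted p = 1.75e-13). More than 10% of the 50-base words were shared with other transcripts in 7 of the 14, as in Zfp708 with 94.9%, so these neighbours are not independent measurements. The chromosome 17 cluster that holds Zfp52 and Zfp948 (chr17:21008903-23564238) had 5 higher and 10 lower of 16 members, with log2 fold changes from -1.25 to 1.87. In the other chromosome 17 cluster (chr17:32765496-33631779) 1 of 11 was higher and 9 lower. All 5 members were lower in the clusters at chr7:27731389-28380253, chr8:69209038-69791178 and chr9:20345136-20605409, which at this size is near the share of all members.

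Of 8 members with roles in ribosome assembly, ribosome quality control or RNA handling, 7 rose on each stimulation and Zfp622 passed the test in neither. The 7 are 87.5% of the list in reactivated TH1 against TH1 effector cells, where 42.9% of all members and 44.3% of genes of at least 5 CPM were higher. In activated naive against naive cells they are also 87.5%, where 31.8% of all members and 44.9% of genes of at least 5 CPM were higher. Zfp593, whose yeast relative acts in assembly of the large ribosomal subunit, led with 77.1 to 109 CPM (median 103) in activated naive and 15.1 to 19.9 CPM (median 16.9) in naive libraries (log2 fold change 2.49 ± 0.07, SE, adjusted p = 2.27e-20). It rose by 1.11 ± 0.07 in reactivated TH1 cells, and groups did not overlap in either comparison. Of its 50-base words 66.9% are shared with other transcripts, and E130218I03Rik overlaps it on the other strand. Zfp598, the ubiquitin ligase that marks collided ribosomes, rose by 0.43 ± 0.05 in TH1 cells (adjusted p = 8.45e-08) and by 0.84 ± 0.05 in naive cells (adjusted p = 1.78e-13). Zfp207, a spindle and splicing protein, was highest in reactivated TH1 cells, with 335 to 370 CPM against 189 to 270 CPM in TH1 effector libraries (log2 fold change 0.62 ± 0.09, adjusted p = 3.11e-07). In activated naive against naive cells Zfp207, Zfp830 and Zfp346 did not pass the test with scaling by library size alone, nor did Zfp706 in reactivated TH1 against TH1 effector cells. Zfp106, an RNA-binding protein, averaged 505 ± 20.2 CPM in reactivated TH1, 353 ± 12.5 CPM in TH1 effector, 491 ± 21.4 CPM in activated naive and 241.7 ± 5.33 CPM in naive cells (SD, n = 6 each). Zfp622, whose yeast relative is a late factor of the large ribosomal subunit, had log2 fold changes of -0.15 in TH1 and 0.03 in naive cells.

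Of 24 transcription and chromatin factors with described roles, 3 were higher and 19 lower in TH1 effector than in naive cells, and these 12.5% and 79.2% are close to the 11.0% and 78.8% of all members. In activated naive against naive cells 11 of the 24 were higher (45.8%, against 31.8% of all members and 44.9% of genes of at least 5 CPM) and 6 lower (where 46.5% and 41.9% were lower). In reactivated TH1 against TH1 effector cells 14 were higher and 5 lower (58.3% and 20.8%, against 42.9% and 26.1% of all members and 44.3% and 37.8% of genes of at least 5 CPM). Zfp217, which works in the CoREST and CtBP corepressor complexes, ranged from 29.6 to 48.9 CPM (median 33.6) in activated naive and from 183 to 195 CPM (median 191) in naive libraries. In reactivated TH1 libraries it lay between 72.1 and 86.4 CPM, against 80.4 and 85.4 CPM in TH1 effector libraries. In TH1 cells its log2 fold change was -0.08 ± 0.08 (adjusted p = 0.313), in naive cells it was -2.42 ± 0.08 (adjusted p = 9.34e-20), and the difference of 2.34 ± 0.11 passed the test (adjusted p = 1.24e-15). Zfp592 and Zfp687, which join Zmynd8 in a chromatin complex, were lower in TH1 effector than in naive cells by log2 fold changes of -1.53 ± 0.04 and -0.84 ± 0.09. Zfp652 fell at each step, with 8.06 to 12.5 CPM in reactivated TH1, 24.4 to 27.5 CPM in TH1 effector, 21.9 to 29.6 CPM in activated naive and 77.2 to 84.9 CPM in naive libraries. Zfp445, a KRAB gene that maintains imprinting, averaged 140 ± 14.6 CPM in TH1 effector and 272 ± 24.1 CPM in naive cells (SD, n = 6 each, log2 fold change -0.96 ± 0.05, adjusted p = 2.66e-14). Zfp219 was among the 3 that were higher, with 59.2 to 72.0 CPM in TH1 effector and 20.8 to 35.9 CPM in naive libraries (log2 fold change 1.24 ± 0.11, adjusted p = 4.5e-11).

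Of 8 members with described roles in lymphocytes, 8 were lower in reactivated TH1 than in activated naive cells, where 64.5% of all members and 40.5% of genes of at least 5 CPM were lower. Their median log2 fold change was -0.92, against -0.47 for all members. Beside the CCCH genes and Zfp281 these are Zfp335, Zfp318, Zfp91 and Zfp131. Zfp335, needed for the maturation of naive T cells in mice, averaged 65.4 ± 7.93 CPM in TH1 effector and 113 ± 8.04 CPM in naive cells (SD, n = 6 each, log2 fold change -0.80 ± 0.07, adjusted p = 7.42e-11). Zfp318, known for IgD splicing in B cells, was lower in TH1 effector than in naive cells by 1.18 (log2 fold change -1.18 ± 0.14, adjusted p = 6.14e-09), and its log2 fold changes on stimulation, 0.18 in TH1 and 0.18 in naive cells, did not pass the test. Zfp131 rose in activated naive cells by 0.72 ± 0.09 (adjusted p = 1.39e-08), with 103 to 155 CPM against 69.1 to 82.0 CPM in naive libraries, and its response in TH1 cells was 0.11 ± 0.09 (adjusted p = 0.234).

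Counting could join members to neighbours in several cases. Of the 245 members, 87 share an exon with another gene, 67 of them on the other strand, and 49 share more than 10% of their 50-base words with other transcripts. The 143 members free of both had 15 higher and 110 lower in TH1 effector against naive cells, which is 10.5% and 76.9%, close to the 11.0% and 78.8% of all members.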

How the data were processed

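The files are tables of whole-number read counts per gene symbol, 1 per library, not normalised as deposited. STAR, HTSeq, DESeq2 and the build mm10 are named per the submitters' processing notes, with roles, versions, annotation and strand setting not given in the sources used here. Per the labels' protocols, RNA was extracted from sorted, frozen cells and a strand-preserving kit was used for the libraries. Lines for reads outside genes stayed out of totals (no feature 13.2% to 24.5%, ambiguous 0.706% to 1.25%, aligned to several places 5.41% to 7.83%, each as a share of all counts in the table). Groups came from the labels, and the run from the flow cell code in the name of each file (libraries 1 to 3 and 4 to 6 of each group). No libraries of a group were alike within sampling noise (lowest chi-square per degree of freedom 9.21).

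Counts of all 24 libraries were fitted with edgeR 4.0.16 (limma 3.58.1, R 4.3.3): filterByExpr (12584 genes, all 245 members among them), TMM, robust quasi-likelihood with group and run as terms, glmQLFTest, Benjamini-Hochberg adjustment over all genes, threshold 0.05. All adjusted p-values are from this fit. The fit was also tried on simulated counts. These had no run effect and no source shared between libraries, so that trial does not cover either. Levels are TMM-normalised CPM, and SEs are those of the difference of group means of log2 CPM within run. Members were chosen on plain CPM. The members, lists and tests were chosen with earlier results of these data known. Named members are the 5 largest rises and falls per comparison with at least 10 CPM in the highest group and no overlap of libraries (overlap was not asked of the difference of responses), plus all members of the 4 role lists, and Zfp708 was named after its values were seen. Positions and proteins are from GENCODE M21 (GRCm38, the same assembly as mm10). The KRAB box was called with a profile (MAFFT 7.526, HMMER 3.4, E value at most 1e-05) on translated coding sequences, in place of RefSeq proteins, which were planned. Shared words are 50-base words of a gene's transcripts that also occur in another gene on either strand. Promoters are RefSeq's on GRCm38.p6, matched by symbol for 201 members. Alternatives were DESeq2 1.42.0, scaling by library size, other filters, the replicate block, the compared groups alone, each run alone, each replicate number left out, other minimum levels of members, and, chosen after seeing the data, members without shared exons and every tested symbol.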

Additional observations from a re-analysis of the deposited data

Results flagged for a closer look

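Over 55 named members and 4 groups, 220 checks of 6 libraries each were made, of which chance alone flags about 1 in 20. Near that share, 13 checks showed 1 library apart from the other 5, relative to the range of the 6. In reactivated TH1 cells these were Zfp143 with 46.31 CPM in library 5 (nearest 41.3), Zfp36 with 22.96 CPM in library 5 (nearest 29.3) and Zfp593 with 44.74 CPM in library 4 (nearest 48.8). In TH1 effector cells they were Zfp653 with 18.13 CPM in library 2 (nearest 16.3), Zfp687 with 49.66 CPM in library 5 (nearest 43.8), Zfp830 with 18.17 CPM in library 3 (nearest 19.7) and Zfp944 with 74.56 CPM in library 4 (nearest 49.7). Activated naive library 6 stood apart for Zfp217 with 48.85 CPM (nearest 36.1), Zfp395 with 11.47 CPM (nearest 7.8), Zfp809 with 46.99 CPM (nearest 39.2) and Zfp831 with 8.918 CPM (nearest 8.36), and library 1 for Zfp639 with 60.88 CPM (nearest 68.3). In naive cells Zfp36 stood apart with 969.4 CPM in library 1 (nearest 684).

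The response of TH1 cells differed from that of naive cells by test for 126 members upward and 37 downward, and the 10 with the largest differences are these. On the log2 scale the TH1 response was above the naive response by 3.83 for Zfp467, 2.96 for Zfp658, 2.87 for Zfp831, 2.8 for Zfp712 and 2.53 for Zfp36l2. It was below it for the others, with differences of -4.42 for Zfp948, -3.31 for Zfp52, -2.42 for Zfp608, -2.28 for Zfp281 and -1.48 for Zfp202.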

How the results depend on the processing

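The 50 fold changes that chose named members were the largest past the threshold, so their stability follows in part from the choice. Of 690 alternative values for these 50, all 690 kept their direction and their side of the threshold. Of 2387 for 173 fold changes of members of role lists, 2308 did so, 61 kept the direction but missed the threshold, 17 newly passed it, and 1 was reversed: Zfp281 in TH1 effector against naive cells was 0.39 in run 2 alone, against -0.02 in all libraries, and the cause was not tested. Counts of members stayed within 1.5 times, as shares, with 1 exception: with every tested symbol, whatever its level, 56 of 313 were higher in TH1 effector than in naive cells, against 27 of 245, and the added symbols are those of low level. Leaving out each replicate number in turn gave 24 to 26 higher and 192 to 193 lower members in that comparison. With the replicate block the counts were 27 and 193, and it moved no count of members by over 1.5 times. Libraries of the same number correlated by 0.046 to 0.381 after centring on run, over 0.1 in 32 of 36 pairs, and correlated best with their own number in 52 of 72 checks. The titles give these numbers as M1 to M6 without saying what they mark, and these correlations are a hint from the data of a shared source, not a statement of the design. In the difference of responses the block gave 129 higher members, 125 of them shared with the 126, and 40 lower members, all 37 among them, and among the fold changes of named members only that of Zfp335 changed its side of the threshold, gaining a call there. Depth limits members of few CPM most, such as Zfp467 in activated naive cells.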
